A study of Mus musculus with 95 samples.

Results

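A set of 10 autosomal genes with lower RNA in every Pcgf knockout line than in wild-type E14 mouse embryonic stem cells is described: Ap3m2, Ccdc3, Clmp, Emp3, Enox1, Myl7, Ngfr, Nqo1, Ptgs1 and Slc30a10. They are 10 of the 23377 genes in the count table and of the 15464 genes with enough counts to be tested. All 10 passed the filter on low counts over all libraries, and 9 passed it in the knockout libraries alone, the exception being Ccdc3. They were listed because their counts were lower in all 6 knockout groups against wild-type in fits that left out 1 library at a time, so their differences from wild-type are given as a description, with no test.

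RNA-seq covered E14 cells of 7 genotypes with 2 libraries each: unedited wild-type cells, cells lacking 1 PCGF gene (Pcgf1-/- or Pcgf6-/-), cells lacking a pair (Pcgf2/4-/- or Pcgf3/5-/-) and triple knockouts (Pcgf1/2/4-/- or Pcgf3/5/6-/-). Per the labels' protocols, the cells of all 7 groups were grown in serum medium on gelatin with leukaemia inhibitory factor, a GSK3β inhibitor and a MEK1/2 inhibitor, the knockouts were clones made with Cas9, and clones lacking several genes came from knockout clones edited again. ChIP-seq gave 1 peak list per antibody and genotype, with 2 each for RING1B and H2AK119Ub1 in Pcgf1/2/4-/-. In the headers of the count table both libraries of a knockout group carry the same line number, which reads as 1 clone per line, but the authors' comparison tables give Pcgf6-/- another number than the count table does, and whether these are separate clones or 1 renamed clone is not known. With 1 clone, the loss of a PCGF protein and the history of that clone cannot be told apart. Nothing in the labels says that the 2 libraries of a group came from separate cultures, so p-values measure the spread between libraries, which may be technical.

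PCGF proteins are the subunits that distinguish the forms of Polycomb repressive complex 1, in each of which a PCGF protein pairs with RING1A or RING1B. These complexes ubiquitylate histone H2A and are known chiefly for keeping genes silent, together with Polycomb repressive complex 2, which contains SUZ12 and methylates lysine 27 of histone H3 (H3K27me3). Trimethylation of lysine 4 of histone H3 (H3K4me3) marks the starts of active and of poised genes.

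Library totals ran from 2147968 to 7848161 counts. The 2 wild-type libraries differed by less than sampling noise (chi-square per degree of freedom 0.958 over 14899 genes, p = 1.00), whereas the pairs of the knockout groups had values of 1.18 to 19.5. Both wild-type values are therefore printed as 1 sample, with no SD. The fit across all genes kept them as 2 libraries, so its SEs and p-values against wild-type treat them as separate. With the pair summed to 1 sample, a fit added after seeing the data, 946 genes in place of 1611 were lowered in Pcgf3/5-/-. The pluripotency factors were present in all 14 libraries, with Pou5f1 at 202 to 717 CPM (counts scaled to normalized library size), Sox2 at 71.3 to 154 and Nanog at 102 to 206.

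Applied here, the rule was met by 14 autosomal genes, which had an adjusted p below 0.05 in all 84 combinations of 14 leave-one-out fits and 6 contrasts. Of the 10 listed genes, 9 were among them, with a largest adjusted p between 0.00261 (Nqo1) and 0.0499 (Emp3, the member nearest to the limit) by edgeR's quasi-likelihood test. Ngfr did not meet it, with a largest adjusted p of 0.0970 and 5 combinations that did not pass, although it was lower in all 6 lines when all libraries were used. In all, 5 genes that are not on the list met the rule: Fam19a4 (9.00e-04), Tmem106a (0.0151), T (0.0158), 1700066B19Rik (0.0193) and Cpsf4l (0.0425). Just outside the limit lay 1300002E11Rik at 0.0514 and Cd4 at 0.0649. Cpsf4l and 1300002E11Rik were named after their values were seen. With all libraries, 73 of the tested genes (0.472%) were lowered in all 6 lines and 49 were raised in all 6.

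The 10 genes lie on 7 autosomes. The start regions differ in CpG content and in wild-type RING1B peaks. The promoters of 4 members are printed, chosen after their values were seen for lying wholly inside or wholly outside such a peak. In CpG content Enox1 is the highest of the 10 members, while Emp3, the lowest, is not printed. Each runs from 250 bases before to 50 bases after the 5′ end of the gene model (build NCBIM37, GENCODE M1). The sequences are given 5′ to 3′ on the gene's strand, with CpG dinucleotides in capitals. Enox1 (chromosome 14, plus strand, chr14:77556373-77556672) and Clmp (chromosome 9, plus strand, chr9:40493795-40494094, named 9030425E11Rik in that annotation) had all 300 bases inside wild-type RING1B, SUZ12 and H3K4me3 peaks. Myl7 (minus strand, chr11:5798736-5799035) and Nqo1 (minus strand, chr8:109927057-109927356) had none inside a RING1B or SUZ12 peak. Among the other members, RING1B peaks covered 251 bases for Ccdc3, 32 for Slc30a10 and 0 for Ap3m2, Emp3, Ngfr and Ptgs1.
Enox1: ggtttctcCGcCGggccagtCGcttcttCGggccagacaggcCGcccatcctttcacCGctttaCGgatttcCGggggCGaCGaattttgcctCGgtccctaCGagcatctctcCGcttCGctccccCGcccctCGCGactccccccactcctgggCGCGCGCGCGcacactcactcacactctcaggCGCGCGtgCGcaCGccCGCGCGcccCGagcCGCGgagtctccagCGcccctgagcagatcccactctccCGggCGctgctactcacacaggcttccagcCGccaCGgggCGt
Clmp: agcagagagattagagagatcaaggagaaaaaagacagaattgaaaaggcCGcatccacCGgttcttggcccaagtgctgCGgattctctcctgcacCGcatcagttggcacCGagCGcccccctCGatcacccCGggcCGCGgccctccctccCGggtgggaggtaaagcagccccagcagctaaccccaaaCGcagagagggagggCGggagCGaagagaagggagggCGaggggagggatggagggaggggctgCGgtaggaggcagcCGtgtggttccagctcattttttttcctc
Myl7: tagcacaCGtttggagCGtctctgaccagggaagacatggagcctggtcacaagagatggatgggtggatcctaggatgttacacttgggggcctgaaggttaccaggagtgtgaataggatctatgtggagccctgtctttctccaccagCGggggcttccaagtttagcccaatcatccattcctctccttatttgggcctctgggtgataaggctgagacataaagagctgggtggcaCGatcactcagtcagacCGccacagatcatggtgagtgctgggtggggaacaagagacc
Nqo1: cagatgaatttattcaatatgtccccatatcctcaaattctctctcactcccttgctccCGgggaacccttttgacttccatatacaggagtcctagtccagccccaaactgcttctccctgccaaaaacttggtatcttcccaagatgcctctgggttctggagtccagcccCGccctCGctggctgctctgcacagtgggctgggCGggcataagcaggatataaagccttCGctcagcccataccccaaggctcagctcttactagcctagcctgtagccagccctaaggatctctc

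The Enox1 promoter holds 39 CpG dinucleotides and that of Clmp 17, against 5 in both Myl7 and Nqo1. Over 14428 promoters of tested autosomal genes the median was 18.0, with 21.0 for genes that had a wild-type RING1B peak at a start and 17.0 for the others. Of the other members, Ccdc3 has 28, Ap3m2 24, Ngfr 19, Slc30a10 12, Ptgs1 6 and Emp3 4. Ap3m2 and Ngfr, whose promoters also lie wholly outside a wild-type RING1B peak, thus hold more CpG dinucleotides than Clmp. All 3 motifs were searched on both strands, and none overlaps another in sequence. The E-box core CACGTG was found in 0 of the 10 promoters (9.44% of all 14428), TTCCCGC, an E2F-like motif, in 0 (7.60%), and TGACNNNGC, the core of the antioxidant response element, in Ccdc3 and Myl7 (13.9%). Sequence further from the 5′ ends was not searched, so a motif missing here may lie outside the promoter as defined.

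The members carry out unrelated tasks and are taken by role, first the enzymes. Nqo1 (ENSMUSG00000003849.8, chr8:109912125-109927106, minus strand) encodes a quinone reductase that is a standard target of the oxidative stress factor NRF2. Wild-type cells had 831 and 842 counts of it, a mean of 118 CPM. Its knockout levels in CPM were 50.0 and 55.6 in Pcgf1-/-, 67.9 and 72.6 in Pcgf2/4-/-, 73.1 and 69.0 in Pcgf3/5-/-, 56.8 and 57.3 in Pcgf6-/-, 66.2 and 67.3 in Pcgf1/2/4-/-, and 34.4 and 30.1 in Pcgf3/5/6-/-. The knockout levels were thus between 27.2% of wild-type in Pcgf3/5/6-/- and 60.0% in Pcgf3/5-/-. The log2 fold change was -1.87 (SE 0.11) in the former and -0.74 (SE 0.09) in the latter. Neighbouring lines in this order overlapped only for Pcgf2/4-/- and Pcgf3/5-/-.

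Ptgs1 (ENSMUSG00000047250.6, chr2:36085946-36107792, plus strand) encodes cyclooxygenase 1, which makes the precursor of prostaglandins. Its CPM were 23.1 and 22.6 in wild-type, 10.5 and 6.40 in Pcgf1-/-, 0.838 and 0.639 in Pcgf2/4-/-, 8.42 and 6.14 in Pcgf3/5-/-, 6.85 and 7.97 in Pcgf6-/-, 3.74 and 9.93 in Pcgf1/2/4-/-, and 8.22 and 7.77 in Pcgf3/5/6-/-. Of the 6 lines, 5 lay close together at 29.9% to 36.9% of wild-type and overlapped their neighbours, while Pcgf2/4-/- stood apart at 3.23% (log2 fold change -5.01, SE 0.43).

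Enox1 (ENSMUSG00000022012.7, chr14:77556623-78121214, plus strand) encodes a cell surface NADH oxidase. It had 68.1 and 64.4 CPM in wild-type, 36.3 and 29.9 in Pcgf1-/-, 8.80 and 12.5 in Pcgf2/4-/-, 42.4 and 38.4 in Pcgf3/5-/-, 16.8 and 15.9 in Pcgf6-/-, 34.7 and 27.5 in Pcgf1/2/4-/-, and 34.4 and 34.8 in Pcgf3/5/6-/-. The 2 lowest lines were Pcgf2/4-/- at 16.1% of wild-type (log2 fold change -2.54, SE 0.16) and Pcgf6-/- at 24.7%, and neither overlapped the other 4, which lay at 47.0% to 60.9%.

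**Figure D1:**
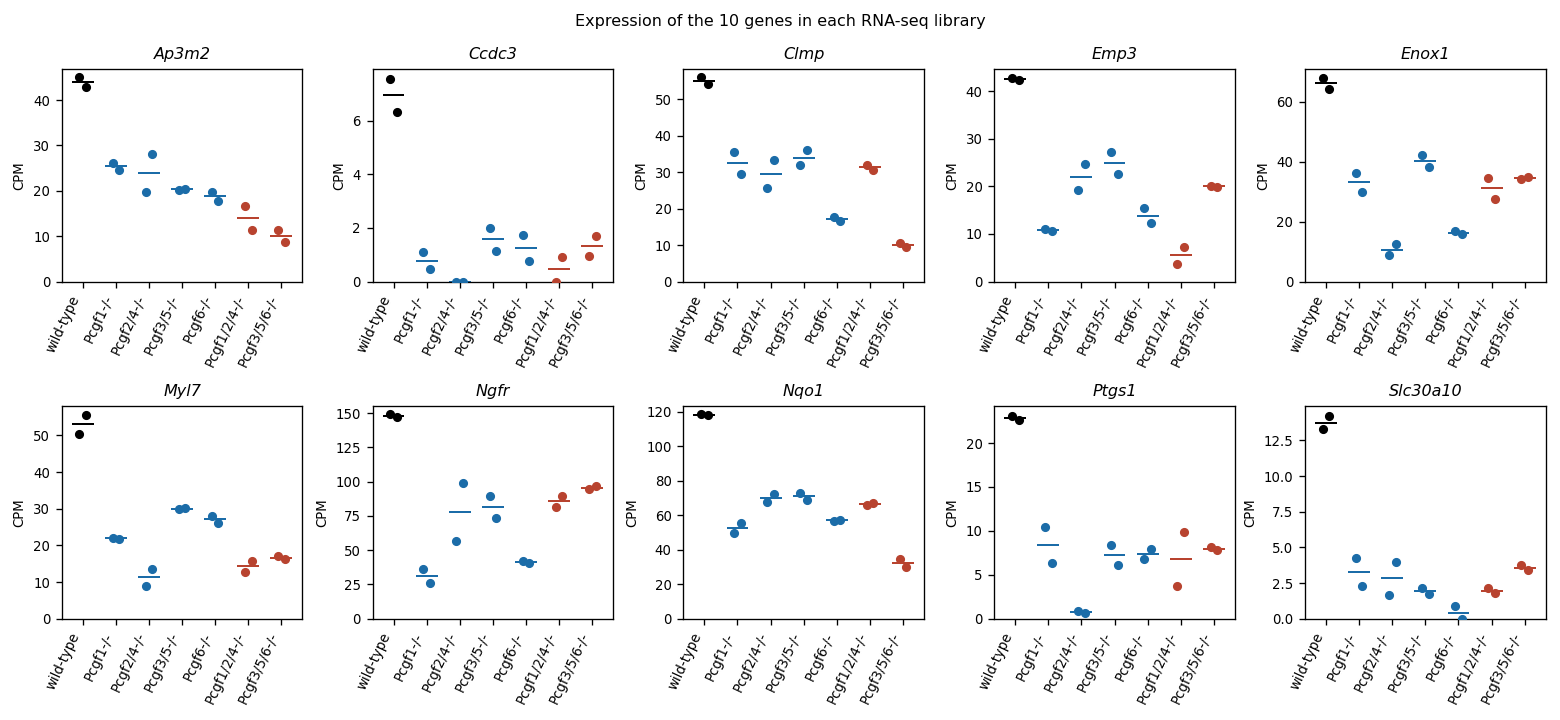
CPM (vertical axis, starting at 0) of each gene in the 2 libraries of each genotype (points) with their mean (line). Wild-type libraries are black, single and double knockouts blue, triple knockouts red. For every gene both wild-type points lie above all 12 knockout points, which is how the genes were chosen, and the lowest line differs from gene to gene.

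Of the receptor and adhesion proteins, Ngfr (ENSMUSG00000000120.6, chr11:95430132-95449049, minus strand) encodes the low-affinity neurotrophin receptor p75. Its CPM were 149 and 147 in wild-type, 36.2 and 26.3 in Pcgf1-/-, 57.0 and 99.3 in Pcgf2/4-/-, 89.6 and 73.4 in Pcgf3/5-/-, 42.0 and 40.6 in Pcgf6-/-, 81.7 and 89.4 in Pcgf1/2/4-/-, and 94.5 and 96.7 in Pcgf3/5/6-/-. Pcgf1-/- and Pcgf6-/- were the 2 lowest lines, at 21.1% and 27.9% of wild-type, and Pcgf3/5/6-/- the highest at 64.6% (log2 fold change -0.63, SE 0.19). The Pcgf2/4-/- libraries differed by more than the other pairs, and without replicate 2 or replicate 1 of that line the log2 fold change was -1.38 or -0.56.

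Clmp (ENSMUSG00000032024.10, chr9:40494045-40593402, plus strand) encodes an adhesion protein of epithelial tight junctions. It had 56.1 and 54.2 CPM in wild-type, 35.5 and 29.5 in Pcgf1-/-, 25.6 and 33.5 in Pcgf2/4-/-, 32.0 and 36.1 in Pcgf3/5-/-, 17.8 and 16.5 in Pcgf6-/-, 32.0 and 30.7 in Pcgf1/2/4-/-, and 10.7 and 9.46 in Pcgf3/5/6-/-. Both lines without PCGF6 were lowest, at 31.2% (Pcgf6-/-) and 18.3% (Pcgf3/5/6-/-) of wild-type, and the other 4, at 53.6% to 61.7%, overlapped their neighbours.

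Emp3 (ENSMUSG00000040212.5, chr7:53173393-53176796, minus strand) encodes a membrane protein with 4 membrane spans of the PMP22 family. Its CPM were 42.8 and 42.5 in wild-type, 11.1 and 10.7 in Pcgf1-/-, 19.3 and 24.8 in Pcgf2/4-/-, 27.3 and 22.6 in Pcgf3/5-/-, 15.4 and 12.3 in Pcgf6-/-, 3.74 and 7.23 in Pcgf1/2/4-/-, and 20.2 and 19.9 in Pcgf3/5/6-/-. The triple knockout Pcgf1/2/4-/- was lowest at 12.9% of wild-type (log2 fold change -2.92, SE 0.26), followed by Pcgf1-/- at 25.7%.

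Of the transport proteins, Slc30a10 (ENSMUSG00000026614.6, chr1:187278727-187292641, plus strand) encodes a manganese exporter of the zinc transporter family. It had 13.3 and 14.2 CPM in wild-type, 4.26 and 2.29 in Pcgf1-/-, 1.68 and 3.96 in Pcgf2/4-/-, 2.14 and 1.73 in Pcgf3/5-/-, 0.871 and 0 in Pcgf6-/-, 2.14 and 1.81 in Pcgf1/2/4-/-, and 3.79 and 3.38 in Pcgf3/5/6-/-. Pcgf6-/- was lowest with 7 and 0 counts, 3.17% of wild-type, and the other 5 lines, at 14.1% to 26.1%, each overlapped a neighbour.

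Ap3m2 (ENSMUSG00000031539.4, chr8:23897826-23916126, minus strand) encodes the mu subunit of the neuronal form of the AP-3 vesicle adaptor. Its CPM were 45.1 and 42.9 in wild-type, 26.1 and 24.7 in Pcgf1-/-, 19.7 and 28.2 in Pcgf2/4-/-, 20.2 and 20.5 in Pcgf3/5-/-, 19.8 and 17.8 in Pcgf6-/-, 16.6 and 11.3 in Pcgf1/2/4-/-, and 11.4 and 8.79 in Pcgf3/5/6-/-. Both triple knockouts were below all single and double knockouts, at 31.6% and 22.9% of wild-type.

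Myl7 (ENSMUSG00000020469.8, chr11:5796640-5798785, minus strand) encodes the atrial myosin light chain of the heart and had 50.4 and 55.7 CPM in wild-type, 22.1 and 21.7 in Pcgf1-/-, 8.80 and 13.7 in Pcgf2/4-/-, 29.9 and 30.1 in Pcgf3/5-/-, 28.0 and 26.2 in Pcgf6-/-, 12.8 and 15.8 in Pcgf1/2/4-/-, and 17.1 and 16.2 in Pcgf3/5/6-/-. Pcgf2/4-/- and Pcgf1/2/4-/- were lowest and overlapped. The log2 fold change was -2.13 (SE 0.16) in Pcgf2/4-/- and -1.88 (SE 0.19) in Pcgf1/2/4-/-.

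Ccdc3 (ENSMUSG00000026676.7, chr2:5058822-5151924, plus strand) encodes a secreted protein with a coiled coil and had the lowest CPM of the members in wild-type. It had 7.56 and 6.33 CPM in wild-type (53 and 45 counts), 1.09 and 0.457 in Pcgf1-/-, 2.01 and 1.15 in Pcgf3/5-/-, 1.74 and 0.766 in Pcgf6-/-, and 0.948 and 1.69 in Pcgf3/5/6-/-. No count was seen in Pcgf2/4-/-, so with a floor of 3 counts over its 2 libraries it was at least 23.6-fold lower than in wild-type. Pcgf1/2/4-/- had 2 counts, which is 7.05% of wild-type with an exact 95% counting interval of 0.842% to 26.2%. All neighbouring lines overlapped, so no order of the lines can be read from Ccdc3.

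Every model is a protein-coding gene. Annotated transcripts on the opposite strand overlap Ccdc3 (Gm16934), Clmp (Gm16095, Gm16096), Enox1 (Gm10132, Gm6994) and Slc30a10 (Gm2061). Use of strand in the counting is not given in the sources used here, so reads of these genes and of their antisense partners may not have been told apart. Per kilobase of exon, wild-type levels ran from 2.35 CPM (Slc30a10) to 89.9 CPM (Myl7).

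By line, the median log2 fold change of the 10 members against wild-type was -1.32 in Pcgf1-/-, -1.47 in Pcgf2/4-/- (the same with Ccdc3 at its bound), -0.84 in Pcgf3/5-/-, -1.65 in Pcgf6-/-, -1.69 in Pcgf1/2/4-/- and -1.77 in Pcgf3/5/6-/-. The medians over all 15464 genes were -0.05, 0.00, 0.00, 0.03, -0.11 and 0.05. Lowered genes made up 18.4% of all tested genes in Pcgf1-/-, 13.5% in Pcgf2/4-/-, 10.4% in Pcgf3/5-/-, 18.6% in Pcgf6-/-, 22.6% in Pcgf1/2/4-/- and 25.3% in Pcgf3/5/6-/-. Because the members were chosen on these contrasts, nothing is read from their count of 10 in each. The log2 fold change was below -1 for 7 members in Pcgf1-/-, 5 in Pcgf2/4-/-, 4 in Pcgf3/5-/-, 9 in Pcgf6-/-, 7 in Pcgf1/2/4-/- and 8 in Pcgf3/5/6-/-. In the same order, the 5th percentile of all tested genes was -2.02, -2.37, -1.46, -1.32, -2.30 and -1.53. The share of all genes below -1 was not counted, so the lines are not ranked by these counts. In the authors' deposited tables, which compare the same groups with wild-type, all 60 member values were negative with an adjusted p below 0.05. The choice of members favours this, so nothing is read from it. Of these values, 17 carried the authors' label for downregulated genes, and the share of all genes with that label was not counted. Labelled values had a log2 fold change of -2.05 or lower and the others one of -1.98 or higher. The label thus went with the size of the fold change. For Pcgf6-/- that table may concern another clone than the counts used here, since its line number differs.

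**Figure D2:**
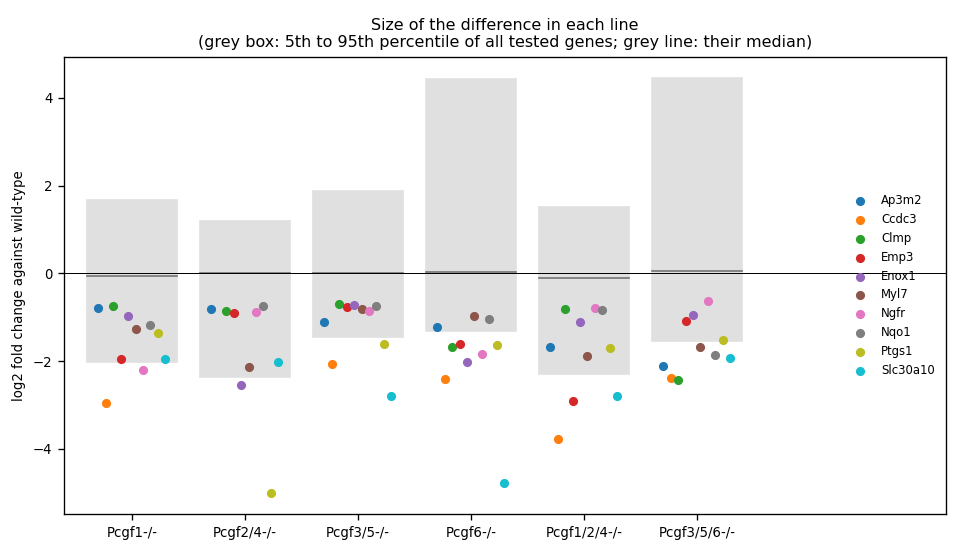
Log2 fold change against wild-type (vertical axis) of the members (coloured points) in each knockout line (horizontal axis), with the 5th to 95th percentile of all tested genes as a grey box and their median as a grey line. Ccdc3 in Pcgf2/4-/-, which had no counts, is not drawn. All points lie below 0, from -0.63 (Ngfr in Pcgf3/5/6-/-) to -5.01 (Ptgs1 in Pcgf2/4-/-).

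By mean CPM, each line but Pcgf3/5-/- was the lowest for at least 1 member. Pcgf2/4-/- was lowest for Ccdc3, Enox1, Myl7 and Ptgs1, Pcgf3/5/6-/- for Ap3m2, Clmp and Nqo1, Pcgf1-/- for Ngfr, Pcgf1/2/4-/- for Emp3 and Pcgf6-/- for Slc30a10. For Ap3m2, Ccdc3 and Myl7 the libraries of the lowest line overlapped those of Pcgf1/2/4-/-, the next in order, so the lowest line is not set for these 3. Whether the 6 lines differ from one another was tested in 5 contrasts that leave wild-type out. All 10 members passed (adjusted p from 1.29e-06 for Enox1 to 0.0196 for Ccdc3, edgeR's quasi-likelihood test), and so did 85.9% of all tested genes, so this is close to the background. Over the 12 knockout libraries the log2 CPM of Clmp and Nqo1 had a Pearson r of 0.844 and those of Ccdc3 and Ptgs1 one of 0.820, whereas Ap3m2 and Ngfr had -0.512. These are descriptions over libraries that share lines and depth.

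Each triple knockout was also set against cells missing a subset of its genes, and wild-type is not in these contrasts. The lines compared read as separate clones, so the further loss of a gene and the difference between clones cannot be told apart. In Pcgf3/5/6-/- against Pcgf3/5-/-, 4 members were lower and 0 higher: Clmp (10.1 against 34.0 CPM, log2 fold change -1.74, SE 0.19, adjusted p = 3.45e-06), Nqo1 (-1.14, SE 0.11), Ap3m2 (-1.01, SE 0.22) and Myl7 (-0.85, SE 0.17). Of all genes 24.7% were lower and 27.1% higher in that contrast. The members' median was -0.32, against 0.05 for all genes.

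Against Pcgf6-/-, the same triple knockout gave 4 lower and 4 higher members, with 27% of all genes lower and 19.0% higher. Nqo1 (-0.82, SE 0.11), Ap3m2 (-0.89, SE 0.22), Clmp (-0.76, SE 0.20) and Myl7 (-0.70, SE 0.17) were again lower. Ngfr (95.6 against 41.3 CPM, 1.21, SE 0.20), Enox1 (1.08, SE 0.16), Slc30a10 (2.85, SE 0.72) and Emp3 (0.53, SE 0.20, adjusted p = 0.0480 by edgeR) were higher than in Pcgf6-/-. Without Pcgf3/5/6-/- replicate 2 only 4 of the 8 calls passed.

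In Pcgf1/2/4-/- against Pcgf1-/-, 3 members were lower and 2 higher, with 22.0% of all genes lower and 19.6% higher. Emp3 (-0.97, SE 0.31), Ap3m2 (-0.89, SE 0.22) and Myl7 (-0.61, SE 0.20) were lower. Ngfr was higher at 85.5 against 31.2 CPM (1.43, SE 0.22, edgeR's adjusted p = 1.80e-04), as was Nqo1 (0.35, SE 0.11). Leaving out Pcgf1-/- replicate 1, Pcgf1/2/4-/- replicate 1 or Pcgf1/2/4-/- replicate 2 left 2 of these 5 calls.

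Against Pcgf2/4-/-, this triple knockout gave 2 lower and 2 higher members, with 18.4% of all genes lower and 11.6% higher. Emp3 (5.48 against 22.0 CPM, -2.02, SE 0.29) and Ap3m2 (-0.87, SE 0.23) were lower. Ptgs1 (6.84 against 0.738 CPM, 3.32, SE 0.61, edgeR's adjusted p = 0.00102) and Enox1 (31.1 against 10.7 CPM, 1.44, SE 0.20) were higher, so that both genes stood nearer to wild-type in the triple knockout than in the double. Without Pcgf1/2/4-/- replicate 2 the number of calls was 2. Ap3m2 was the single member that was lower in all 4 contrasts, though its call was lost in 3 of them when 1 triple-knockout library was left out.

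**Figure D3:**
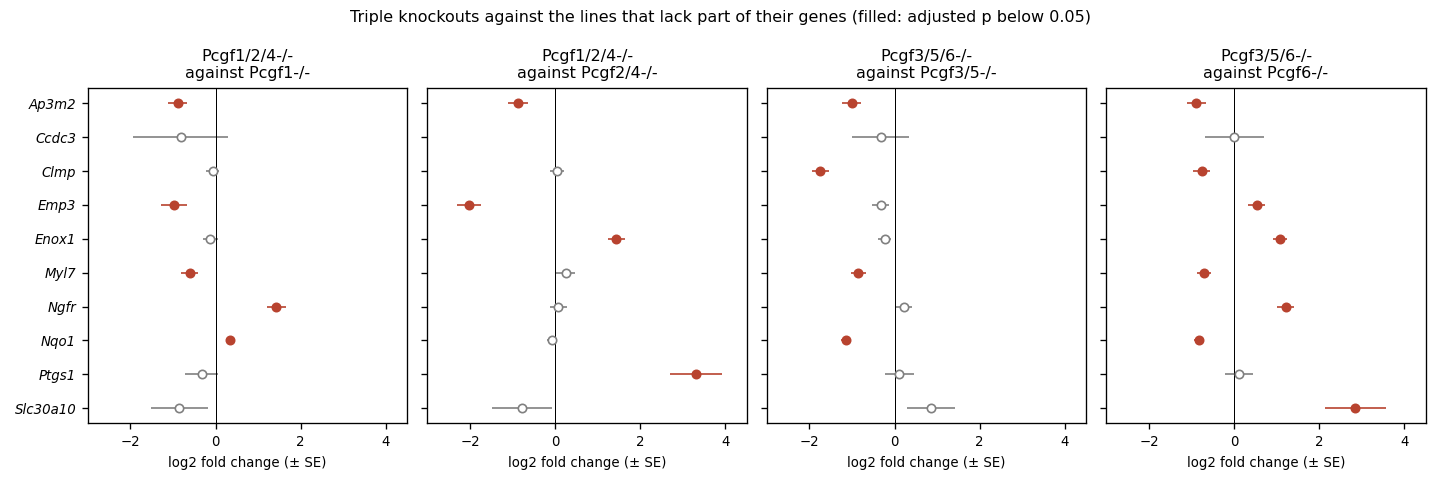
Log2 fold change (horizontal axis, ± SE) of each gene (vertical axis) in a triple knockout against a line that lacks part of its genes, with filled red points for an adjusted p below 0.05. Ccdc3 against Pcgf2/4-/-, which had no counts, is not drawn. Ap3m2 is left of 0 in all 4 panels, and Enox1 and Ptgs1 lie right of 0 against Pcgf2/4-/-.

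The peak lists were read for a peak within 2.5 kb of an annotated start of each gene. All 10 members had an H3K4me3 peak in wild-type and in each of the 4 single and double knockout lists, the triple knockouts having no such list here. Of 14432 tested autosomal genes, 89.2% had one in wild-type, 88.3% in Pcgf1-/-, 89.0% in Pcgf2/4-/-, 88.3% in Pcgf3/5-/- and 90.3% in Pcgf6-/-, so the count of 10 is near the background. Wild-type H3K4me3 peaks covered 0 of the 300 promoter bases of Emp3, whose nearest peak lay 1317 bp from a start. They covered 52 bases for Ngfr, 132 for Myl7, 146 for Ptgs1 and all 300 for the other members. The authors' fold enrichment of the strongest peak near the start of Nqo1 was 16.2 in the wild-type list, and 27.4, 21.7, 17.4 and 26.3 in the lists of Pcgf1-/-, Pcgf2/4-/-, Pcgf3/5-/- and Pcgf6-/-. For Ccdc3, which had no RNA counts in Pcgf2/4-/-, it was 34.5 in wild-type and 44.2 in Pcgf2/4-/-, with a peak of 1369 and of 1417 bp. For Ptgs1 it was 23.0 in wild-type, and 12.6, 19.2, 10.6 and 20.0 in the same order of knockout lists. Lists were called separately, so these values are set side by side and no change is read from them.

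RING1B peaks lay at the starts of 5 members in wild-type: Ccdc3, Clmp, Enox1, Ngfr and Slc30a10 (16.7% of all genes). The same 5 had a SUZ12 peak there in wild-type (17.9%). Clmp had the strongest RING1B peak of them (chr9:40493537-40495241, fold 15.7), followed by Enox1 (chr14:77556008-77557686), Slc30a10 (7.92), Ccdc3 (6.01) and Ngfr (4.85). H3K27me3 peaks lay at Clmp (chr9:40493482-40494031) and Enox1 (chr14:77555515-77556490), 2 of 10 members against 13.5% of all genes. Nearest to the starts of Ap3m2 and Nqo1, the wild-type RING1B peaks were 168388 and 531933 bp away.

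In the single and double knockouts RING1B peaks remained at Clmp, Enox1 and Slc30a10 in all 4 lists. The counts were 3 of 10 members in Pcgf1-/- (17.2% of all genes), 5 in Pcgf2/4-/- (20.1%), 4 in Pcgf3/5-/- (17.4%) and 5 in Pcgf6-/- (13.2%). Emp3, with no wild-type peak, had one in Pcgf2/4-/- and Pcgf3/5-/-, 1517 and 1467 bp from its nearest start. In the triple knockouts 1 member had a peak in each list, Enox1 in the first Pcgf1/2/4-/- list (8.50%) and in Pcgf3/5/6-/- (7.66%), and Emp3 in the second Pcgf1/2/4-/- list (7.77%).

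SUZ12 peaks were found at Clmp, Enox1 and Slc30a10 in all 7 lists. The counts of members were 4 in Pcgf1-/- (16.4%), 5 in Pcgf2/4-/- (24.3%), 4 in Pcgf3/5-/- (18.8%), 5 in Pcgf6-/- (15.3%), 4 in Pcgf1/2/4-/- (13.8%) and 4 in Pcgf3/5/6-/- (13.7%). Ptgs1, without a SUZ12 peak in wild-type, had one in Pcgf2/4-/-, Pcgf6-/- and Pcgf1/2/4-/-, where its RNA was at 3.23%, 32.4% and 29.9% of wild-type. In Pcgf1-/-, Pcgf3/5-/- and Pcgf3/5/6-/-, which had no such peak, Ptgs1 RNA was at 36.9%, 31.8% and 34.9%. A link between the SUZ12 peak and the RNA of Ptgs1 was not tested. Ngfr had one in wild-type and in Pcgf3/5/6-/-.

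H3K27me3 peaks were found at 5 members in Pcgf1-/- (20.0%), 8 in Pcgf2/4-/- (38.0%), 3 in Pcgf3/5-/- (22.1%), 4 in Pcgf6-/- (14.6%), 2 in Pcgf1/2/4-/- (5.28%) and 6 in Pcgf3/5/6-/- (21.5%). Slc30a10, with no peak in wild-type, had one in all 6 knockout lists, for example at chr1:187278657-187279764 with fold 19.4 in Pcgf2/4-/-. Ptgs1 had one in Pcgf1-/-, Pcgf2/4-/- and Pcgf6-/-, and Ccdc3 in Pcgf1-/-, Pcgf2/4-/- and Pcgf3/5/6-/-. The lists differed greatly in size, from 3918 peaks in Pcgf1/2/4-/- and 8063 in wild-type to 112110 in Pcgf2/4-/-, and the part of list size in these counts was not tested. Nqo1 had no RING1B, SUZ12 or H3K27me3 peak at its start in any list. Ap3m2 and Myl7 had no RING1B or SUZ12 peak, and 1 H3K27me3 peak each, in Pcgf3/5/6-/- and Pcgf2/4-/-.

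**Figure D4:**
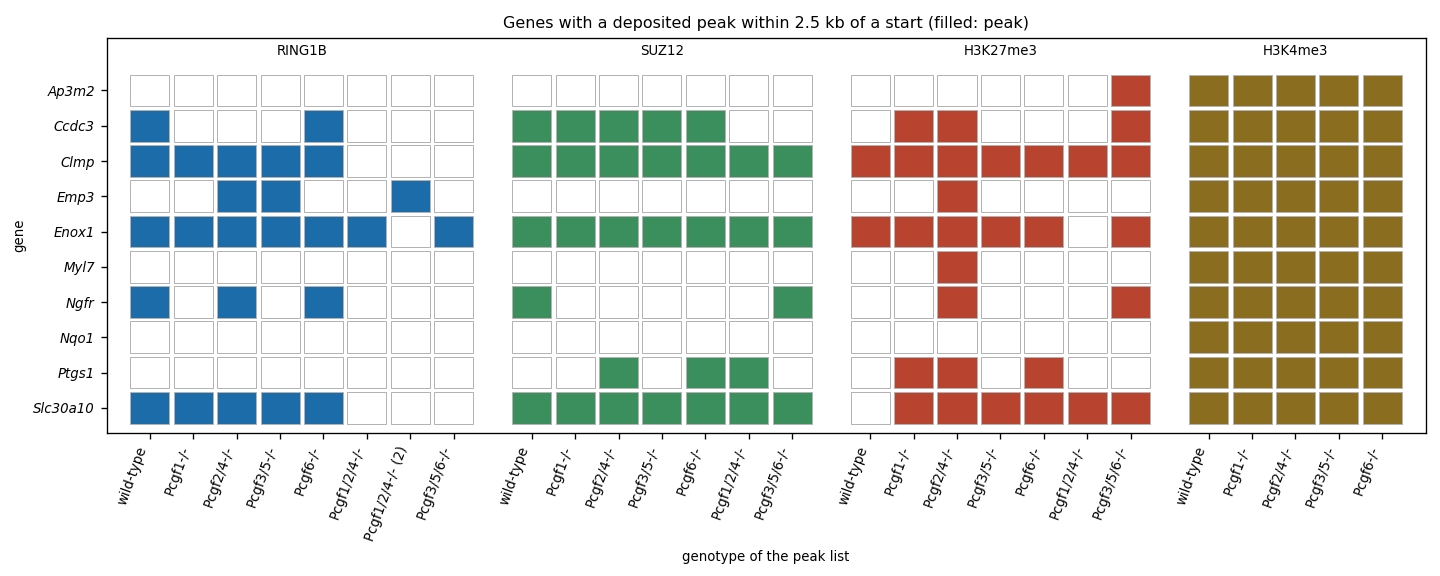
Members (rows) with a deposited peak within 2.5 kb of an annotated start (filled squares) in each list of 4 antibodies (columns, by genotype; (2) is the second RING1B list of Pcgf1/2/4-/-). H3K4me3 squares are filled in all 5 lists, Clmp, Enox1 and Slc30a10 are filled in all 7 SUZ12 lists, and Nqo1 is filled for H3K4me3 alone.

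Other wild-type lists held few of the members. PCGF2 peaks lay at Clmp, Enox1 and Slc30a10 (14.7% of all genes), a PCGF6 peak at Emp3 (7.76%) and USF1 peaks at Clmp and Emp3 (23.4%). The PCGF6 peak lay 1579 bp and the USF1 peaks 1502 (Emp3) and 2080 bp (Clmp) from the nearest annotated start. Neither of these wild-type lists thus counts a member within a window of 1 kb. A PCGF6 list of cells labelled shCtr (26.7% of all genes) had peaks at Clmp (42 bp from a start), Slc30a10 (209 bp), Enox1 (652 bp) and Emp3 (1433 bp). That list held 7451 peaks and the wild-type PCGF6 list 1868, and the part of list size was not tested. No member had a wild-type peak of PCGF1 (2.59%), PCGF3 (1.28%), WDR5 (13.5%) or H2AK119Ub1 (3.78%). H3K36me3, a mark of transcribed gene bodies, had no peak within 2.5 kb of a member's start in wild-type (38.9% of all genes), Pcgf1-/- (46.2%), Pcgf2/4-/- (41.9%), Pcgf3/5-/- (46.5%) or Pcgf6-/- (46.0%). Over the whole gene, H3K36me3 peaks covered 0% of each member in wild-type, and in the knockouts at most 10.7% (Nqo1 in Pcgf6-/-). Whole-gene coverage of all tested genes is not given here, so nothing is read from these values. In the knockouts PCGF1 peaks lay at 3 members in Pcgf2/4-/- (6.00%), Enox1, Ngfr and Slc30a10, at Enox1 in Pcgf3/5-/- (0.838%), and at the same 3 and Clmp in Pcgf6-/- (11.8%). PCGF6 peaks lay at Emp3, Enox1 and Slc30a10 in Pcgf1-/- (24%) and Pcgf3/5-/- (7.34%). In Pcgf2/4-/- they lay at these, Ccdc3 and Clmp (43.4%), and in Pcgf6-/- at 0 members (2.16%). PCGF2 peaks lay at 2 members in Pcgf1-/- (14.2%), 0 in Pcgf2/4-/- (5.18%), 3 in Pcgf3/5-/- (10.5%) and 6 in Pcgf6-/- (23%). PCGF1 was also mapped in other lines: in cells without Ring1a and with a floxed Ring1b (Ring1a-/-_Ring1bfl) 7 members had a peak (41.4% of all genes), in Ring1a/b-/- cells 0 (5.53%), and in Ezh1/2-/- cells 4, namely Clmp, Enox1, Ngfr and Slc30a10 (12.3%).

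H2AK119Ub1, the ubiquitin mark that Polycomb repressive complex 1 places on histone H2A, had peaks at more members in several knockouts than in wild-type. They lay at all 10 members in Pcgf3/5-/- (81.4% of all genes), Nqo1 and Ap3m2 included, at 7 in Pcgf2/4-/- (46.6%) and at 6 in Pcgf3/5/6-/- (40.1%). In Pcgf1-/- they lay at Clmp, Enox1 and Ptgs1 (10.3%), in Pcgf6-/- at Enox1 (7.35%), and in the 2 Pcgf1/2/4-/- lists at 0 members (1.78% and 0.852%). These lists held from 1070 to 128786 peaks, against 1741 in wild-type, and the part of list size in the counts was not tested.

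Of the genes on 7 lists of the members' pathways, 1, Cbr3, fell in all 6 lines, as did 0.472% of all tested genes. Raised genes made up 13.9% of all tested genes in Pcgf1-/-, 8.10% in Pcgf2/4-/-, 11.1% in Pcgf3/5-/-, 27.8% in Pcgf6-/-, 14.4% in Pcgf1/2/4-/- and 28.0% in Pcgf3/5/6-/-. Of 26 other NRF2 response genes, 2 to 8 fell and 0 to 11 rose in a line, and Cbr3, a carbonyl reductase, was the only one that fell in all 6 (from 66.3 and 65.1 CPM in wild-type to 15.5 and 9.80 in Pcgf3/5/6-/-, log2 fold change -2.37). Mgst1, a glutathione transferase, fell in 4 lines and rose in Pcgf6-/- (2.76) and Pcgf3/5/6-/- (1.55). Of 18 tested prostanoid genes 1 to 6 fell and 2 to 8 rose in a line, among them Hpgd, which degrades prostaglandins and rose in 5 lines (from 3.00 and 2.67 CPM in wild-type to 35.4 and 36.6 in Pcgf1-/-).

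Of 13 tested neurotrophin genes, 1 or 2 fell in a line and 2 to 10 rose. Among 18 tested cardiac sarcomere genes, 1 to 7 fell and 1 to 13 rose, with 13 raised in Pcgf3/5/6-/-, where Myl7 was at 31.4% of wild-type. Acta2, smooth muscle actin, rose there to 11.7 and 13.9 CPM from 0.285 and 0.563.

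Among 24 tested zinc and manganese transporters 3 to 7 fell and 0 to 6 rose. Of 6 other AP-3 subunits 0 or 1 fell and 0 to 2 rose, and Ap3d1, the delta subunit, fell in Pcgf6-/- (-0.56) and rose in Pcgf1-/- and Pcgf1/2/4-/- (both 0.76). Of 9 tested genes of the PMP22/EMP and CTX adhesion families, 1 to 4 fell and 1 to 4 rose. Emp1 fell in Pcgf1-/- (-2.86) and Pcgf6-/- (-1.71), and Cxadr, the adhesion receptor related to Clmp, rose in 5 lines (1.24 in Pcgf1-/-) and fell in Pcgf1/2/4-/- (-0.65). No gene of the zinc and manganese, AP-3 or PMP22/EMP and CTX lists fell in all 6 lines, against 0.472% of all tested genes, which is close to the background.

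Because the members were selected as higher in 1 wild-type pair than in 6 lines, other properties of that pair are given beside them. Of 9 Y-linked genes in the table, 6 were tested, and Ddx3y, Eif2s3y, Uty and Uba1y fell in all 6 lines. The summed Y-linked level was 331 and 343 CPM in wild-type, at most 18.5 CPM in the first 5 knockout lines, and 101 and 103 CPM in Pcgf3/5/6-/-. Eif2s3y, for example, had 123 and 122 CPM in wild-type, 60.3 and 63.2 in Pcgf3/5/6-/- and at most 1.26 elsewhere. Xist, the X-linked RNA that silences an X chromosome, also fell in all 6 lines, from 23.1 and 22.4 CPM in wild-type to between 7.54 and 16.7 CPM in the knockout libraries. The medians over 6 Y-linked genes ran from -8.34 to -1.71 on the log2 scale. By contrast, the median of each of the 19 autosomes lay between -0.27 and 0.23 in every line, and those of the 7 autosomes with members between -0.17 and 0.23.

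No gene beside a member fell in all 6 lines, against 0.472% of all tested genes, so this is close to the background. Of the 60 nearest tested neighbours (3 on each side), 11 were lowered in Pcgf1-/-, 8 in Pcgf2/4-/-, 5 in Pcgf3/5-/-, 16 in Pcgf6-/-, 19 in Pcgf1/2/4-/- and 18 in Pcgf3/5/6-/-. These numbers stand beside the shares of lowered genes given above, from 10.4% to 25.3%.

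T, the mesoderm factor brachyury and a target of Wnt signalling, met the rule. It had 36.2 and 30.0 CPM in wild-type, at most 14.2 in any knockout library, and 0.622 and 1.23 in Pcgf6-/-. Of 12 Wnt and GSK3 response genes, 9 fell in Pcgf1-/-, 8 in Pcgf6-/-, 7 in Pcgf3/5/6-/- and 6 in Pcgf1/2/4-/-, but 1 in Pcgf2/4-/- and 2 in Pcgf3/5-/-, where 3 and 2 rose. Their summed level was 426 and 433 CPM in wild-type, 417 and 513 in Pcgf2/4-/-, and 396 and 439 in Pcgf3/5-/-, but 167 to 233 in the libraries of the other 4 lines. 

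**Figure D5:**
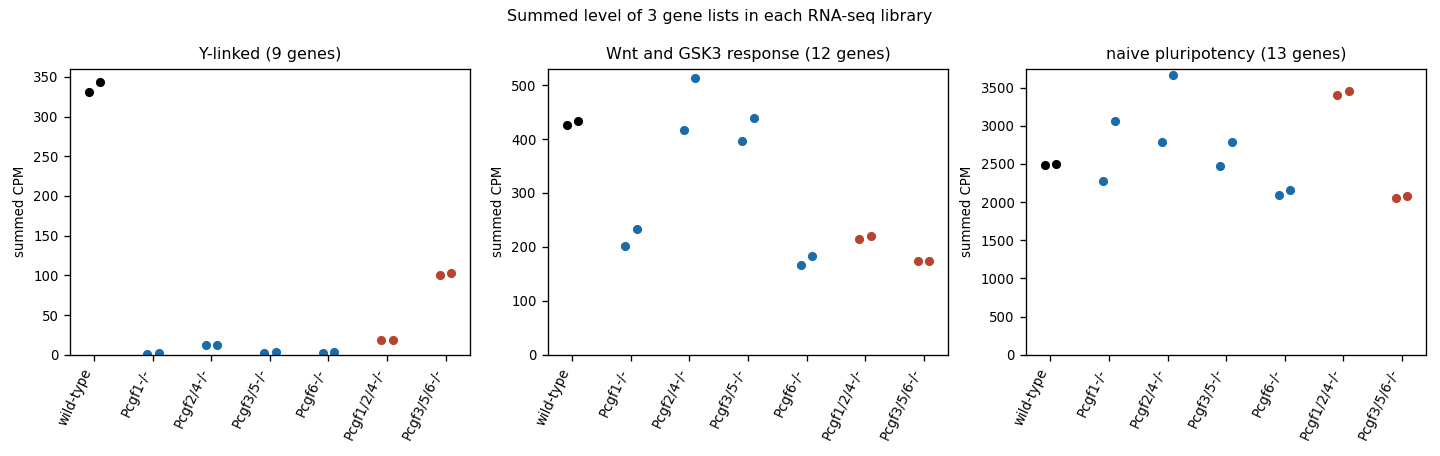
Summed CPM (vertical axis, starting at 0) of Y-linked, Wnt and GSK3 response and naive pluripotency genes in the 2 libraries (points) of each genotype. Wild-type is black, single and double knockouts blue, triple knockouts red. The Y-linked sum is 331 and 343 in wild-type and at most 103 elsewhere, while the other sums in wild-type lie within the range of the knockouts.

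Of 13 naive pluripotency genes, 0 to 7 fell and 1 to 4 rose in a line, with summed levels of 2491 and 2499 CPM in wild-type and 2047 to 3665 CPM in the knockouts. Of 11 tested ERK response genes, 2 to 6 fell and 1 to 6 rose, and Spry4 fell in all 6 lines. Fos, an immediate early gene, had 0 and 1 counts in wild-type and 263 and 182 in Pcgf6-/-. Of 10 tested fibroblast or feeder genes, 2 to 6 fell and 0 to 7 rose, and the summed level of the 16 in the table was 276 and 286 CPM in wild-type and 153 to 251 in the knockouts. The list sum was thus higher in wild-type than in any knockout library, and its part in the results was not tested. Col3a1, Col6a1, Dcn, Postn and Twist2 had 0 counts in wild-type, whereas Lum, which encodes lumican, had 31 and 24 there and 0 in Pcgf2/4-/- and Pcgf3/5/6-/-. Summed mesoderm genes were at 40.8 and 48.4 CPM in wild-type, of which T gave most, and at 15.1 to 72.4 in the knockouts. In bulk RNA fewer cells of a type and less RNA per cell cannot be told apart.

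The genes whose log2 CPM over the 14 libraries was most like the members' mean profile were Cd4 (Pearson r 0.896), Tonsl (0.888), Gm9958 (0.886), Tmem106a (0.883) and Tmem173 (0.881). The members themselves had r from 0.588 (Ngfr) to 0.852 (Myl7). Because the 14 libraries include the wild-type pair used to choose the members, any gene high there and low elsewhere gets a high r. Cd4, a T cell surface protein, had 27 and 23 counts in wild-type and at most 8 in any knockout library, and Tmem106a had 55.5 and 52.3 CPM in wild-type and 15.5 to 29.4 CPM in the knockouts. Since wild-type is represented by what counts as 1 sample, a property of that culture and an effect shared by the 6 knockouts cannot be told apart from these data.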

How the data were processed

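Processing refers to 14 RNA-seq and 81 ChIP-seq samples of mouse E14 embryonic stem cells. The authors deposited 1 table of whole-number counts per gene symbol without normalization. The submitters' processing notes name TopHat2 2.1.1, Bowtie 1.2.2, HTSeq 0.7.2, MACS2 2.1.1 and build mm9, with no role given; whether strand was used in counting is not given in the sources used here. Also deposited by the authors were 6 comparison tables with log2 fold changes and adjusted p-values, whose headers are those of DESeq2; their mean signal, on a scale of counts over size factors per the file headers, and their other columns were not used. Peaks came as 80 deposited lists, 1 sample each, with a fold ratio and −log10 p- and q-values per the file format. Sample columns left unmapped numbered 0.

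Counts of all 14 libraries entered 1 edgeR 4.0.16 quasi-likelihood fit (filterByExpr, TMM) in R 4.3.3, with Benjamini-Hochberg adjustment over 15464 genes and a threshold of 0.05. The biological coefficient of variation was 12.3% (common dispersion 0.0150). The script was tested on simulated data. CPM are counts over TMM-adjusted library sizes. The floor of 3 counts over single libraries was 0.328 to 1.60 CPM, and reflects counting error alone, as PCR reads are not independent molecules. Gene models (GENCODE M1, NCBIM37) were found for 15045 tested genes, 704 of them by a RefSeq synonym. A start was any annotated transcript start.

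Members and lists were chosen with earlier results of these data known. The genes named are the 10 members, the 4 autosomal non-members whose largest adjusted p under the rule was lowest, and the 5 genes with the most similar profile. From each list the 2 tested genes with the largest mean log2 fold change were also taken, not all of them printed. Others are named as members of a count or, where said, after their values were seen. Marker lists of primed pluripotency (1 to 6 lowered of 10 tested), primitive endoderm (0 to 3 of 7), trophoblast (2 to 4 of 10) and neural genes (1 to 3 of 7) were also counted; up to 6, 5, 8 and 5 of them rose. Alternatives were RLE factors, DESeq2 1.42.0, no low-count filter, loess offsets, a fit of only the groups compared, a replicate block, each library left out, and other peak windows. Another was added after seeing the data, the 2 wild-type libraries summed.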

Additional observations from a re-analysis of the deposited data

Results flagged for a closer look

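All 10 members were flagged because their level differed among the 6 knockout lines (edgeR's quasi-likelihood test among the knockouts, adjusted over 15464 genes). This flag is separate from the rule by which the members were listed. The adjusted p was 4.64e-04 for Ap3m2, 0.0196 for Ccdc3, 4.47e-06 for Clmp, 2.64e-05 for Emp3, 1.29e-06 for Enox1, 4.21e-05 for Myl7, 2.67e-05 for Ngfr, 5.14e-06 for Nqo1, 2.41e-04 for Ptgs1 and 0.00835 for Slc30a10. Of all tested genes 85.9% passed the same test, so passing it does not set the members apart. Groups of 2 libraries are too small for a search for single outlying libraries.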

How the results depend on the processing

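All 60 log2 fold changes of members against wild-type kept their sign under all 21 alternatives, a direction the choice of members fixes; the value nearest to 0 was -0.35 for Ngfr in Pcgf3/5/6-/- with loess offsets. Of 21 member calls between triple knockouts and their parts, 0 changed direction and 10 lost significance under at least 1 alternative, Emp3 against Pcgf6-/- most often (12 of 21). With only the groups compared, 2405 genes differed between Pcgf1/2/4-/- and Pcgf2/4-/- (members: 2), and 1833, 706 and 4373 were lowered in Pcgf1-/-, Pcgf2/4-/- and Pcgf6-/-. With the wild-type libraries summed, 946 genes were lowered in Pcgf3/5-/- instead of 1611. Loess offsets left 3 of 5 member calls between Pcgf1/2/4-/- and Pcgf1-/-. The causes were not tested. With 1 library left out, which leaves 1 sample in its group, assumed to vary like the others, genes differing numbered 3908 to 7670 between Pcgf1/2/4-/- and Pcgf1-/- and 2587 to 6720 between Pcgf1/2/4-/- and Pcgf2/4-/-. Genes lowered numbered 1537 to 3592 in Pcgf1-/- (lowest without Pcgf1-/- replicate 2), 1175 to 2739 in Pcgf2/4-/- (lowest without wild-type replicate 1), 713 to 2494 in Pcgf3/5-/- (lowest without Pcgf3/5-/- replicate 2) and 1760 to 4057 in Pcgf1/2/4-/- (lowest without Pcgf1/2/4-/- replicate 1). Counts also moved by over 1.5 times without Pcgf1-/- replicate 1, wild-type replicate 2, Pcgf1/2/4-/- replicate 2, Pcgf3/5-/- replicate 1 or, for Pcgf3/5-/- only, Pcgf2/4-/- replicate 1 (highest, 2494). Member calls numbered 2 to 5 and 2 to 4 for Pcgf1/2/4-/- against Pcgf1-/- and Pcgf2/4-/-, and 4 to 8 for Pcgf3/5/6-/- against Pcgf6-/-. Replicate numbers did not pair the samples (correlation of same-numbered deviations -0.46 to 0.38, median 0.01, over 21 pairs of groups). With the replicate block, 10 members differed among the knockouts, and 5, 4, 4 and 7 in the 4 triple-knockout contrasts; it ended the call of Emp3 against Pcgf6-/- and no other member call. Wild-type counts of members with H3K4me3, H3K27me3, RING1B and SUZ12 peaks stayed within 1.5 times under other windows. Among genes in the members' expression range, 20.3% had a wild-type RING1B peak and 22.3% a SUZ12 peak.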
